A study of Mus musculus with 6 samples.

Results

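The genes described here carry glucose into the cell, break it down to pyruvate and lactate, and pass pyruvate into the mitochondrion, with the enolase family in full. Members were taken by gene name from the deposited table: 34 genes, which occupy 35 of its 31265 rows because the aldolase gene Aldoa has 2 rows. All 35 rows had a mean of at least 1 FPKM (fragments set against transcript length and library total) over the 6 libraries. The main difference was in the enolases. Transcripts assigned to Eno1b were at 249 ± 13.8 FPKM in oxidized cells and 1712 ± 289 FPKM in reduced cells (SD, n = 3 each), whereas Eno1, which encodes the same protein, differed by -0.15 on the log2 scale. No other member passed the threshold. For most members the interval of the log2(FPKM + 1) difference lay within 1 in either direction. That does not bound the fold of members near 1 FPKM.

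Cells were E14Tg2a, a wild-type mouse embryonic stem cell line, expressing Grx1-roGFP2 in the nucleus, a sensor whose fluorescence follows the redox state of glutathione. They were grown as hanging-drop embryoid bodies without LIF or the 2i inhibitors until day 5 and dissociated with Accutase, and cells positive for propidium iodide were discarded. The oxidized group (D5_ox) was the 10% of live cells with the most oxidized sensor and the reduced group (D5_red) the 10% with the most reduced sensor. Both were sorted from each of 3 populations, A, B and C, giving 3 oxidized and 3 reduced libraries, so every group carried the same sensor, genotype, medium and time. The labels do not say whether the populations were separate clones, cultures or days, and the spread that p-values rest on is that among the 3 populations, which may be technical.

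Glycolysis splits glucose into pyruvate in the cytosol and yields ATP and NADH. Lactate dehydrogenase can reduce pyruvate to lactate, which leaves the cell through monocarboxylate transporters, or the mitochondrial pyruvate carrier can hand pyruvate to the pyruvate dehydrogenase complex, which pyruvate dehydrogenase kinases switch off by phosphorylation. Pluripotent stem cells are known for high glycolytic flux, and enolase, which converts 2-phosphoglycerate to phosphoenolpyruvate, exists as a broadly expressed form (Eno1), a neuronal form (Eno2) and a muscle form (Eno3).

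The enolase result turns on sequence, because Eno1b, by its gene name a retrotransposed copy of Eno1, can be told from Eno1 at few bases. The longest reading frames of both genes in the GENCODE vM21 transcripts have 1305 bases and encode 434 residues. They differ at 8 bases (99.4% identity) and at 0 residues. The differing bases are at coding positions 726, 747, 750, 816, 1047, 1056, 1224 and 1233, counted from the A of the start codon, and the longest run without a difference is 725 bases. Of the coding sequence, 96.5% lies in identical runs of at least 50 bases. The stretch from coding base 691 to 750 is shown because it holds 3 of the 8 differences and runs through the other enolases as well. Capitals mark, in Eno1 (chr4:150236721-150248879, plus strand, GRCm38), the bases that differ from Eno1b, and in Eno3 (chr11:70657202-70662513, plus strand) and Eno2 (chr6:124760053-124769673, minus strand) the bases that differ from Eno1.
Eno1: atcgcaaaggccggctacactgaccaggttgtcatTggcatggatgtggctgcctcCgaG
Eno3: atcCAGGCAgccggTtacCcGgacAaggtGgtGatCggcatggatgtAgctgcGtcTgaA
Eno2: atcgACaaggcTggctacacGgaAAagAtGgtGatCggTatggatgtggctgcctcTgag
Over these 60 bases Eno3 differs from Eno1 at 17 and Eno2 at 12. Over the whole protein, 83.6% of residues are the same in Eno1 and Eno3 and 82.9% in Eno1 and Eno2, and 0% of the 50-base stretches of Eno3 occur in any other gene.

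Some libraries stood apart within a group. Oxidized A and B held 7348 and 5160 FPKM of the 13 mitochondrially encoded mRNAs, against 2994 FPKM in oxidized C and 2324 to 3917 FPKM in reduced cells, and 1410 and 1736 FPKM at the ribosomal locus CT010467, against 43825 FPKM in oxidized C and 34116 to 36593 FPKM in reduced cells. Oxidized C is therefore given apart from oxidized A and B where values are listed by population. Ranges over oxidized cells include oxidized C. Between 11911 and 12404 genes reached 1 FPKM in a library, and the libraries of population C had the lowest depth by the step size of low values, at 65.8% (oxidized) and 69.9% (reduced) of the deepest library. The 8 pluripotent and epiblast markers, all detected, summed to 1849, 1650 and 729 FPKM in oxidized cells of A, B and C and 2052 to 2249 FPKM in reduced cells, of which Dppa5a alone held 1390, 1066 and 477 FPKM in oxidized and 1583 to 1702 FPKM in reduced cells. Pou5f1 was at 132, 151 and 73.0 FPKM in A, B and C of the oxidized cells and 168 to 199 FPKM in reduced cells, whereas Nanog held 44.3 and 49.0 FPKM in A and B of the oxidized cells and 11.5 FPKM in C, against 18.2 to 27.2 FPKM in reduced cells. Utf1, Otx2 and Fgf5 were also above every reduced library in oxidized B. Primitive and visceral endoderm markers (9 of 10 at a mean of 1 FPKM) summed to 35.0 to 44.6 FPKM in oxidized and 14.4 to 19.8 FPKM in reduced cells, and Afp was at or near 0. Primitive blood and endothelial markers (6 of 8) summed to 109, 92.0 and 635 FPKM in oxidized cells of A, B and C and 53.2, 89.4 and 640 FPKM in reduced cells of A, B and C. In population C the globins Hbb-bh1 and Hba-x held 267 and 314 FPKM in oxidized and 299 and 290 FPKM in reduced cells. Pecam1 was lowest in C of each group (3.28 and 4.57 FPKM), whereas Kdr, Etv2, Tal1, Gata1 and Cdh5 were highest there. Streak markers (6 of 8) summed to 52.7 to 70.8 FPKM in oxidized and 92.6 to 109 FPKM in reduced cells. Fgf8, T and Mesp1 were lower in every oxidized than in every reduced library. Mixl1, Eomes, Evx1 and Tbx6 overlapped, with Evx1 (14.5 FPKM) and Tbx6 (1.68 FPKM) highest in oxidized B. Lhx1, near 1 FPKM, was higher in every oxidized library. Fibroblast markers (4 of 6) summed to 33.7 to 71.1 FPKM in oxidized and 22.0 to 36.3 FPKM in reduced cells, and neural markers (2 of 6) to 7.28 to 14.0 FPKM in oxidized and 8.17 to 9.36 FPKM in reduced cells. The part of cell composition, mitochondrial RNA or single libraries in the differences below was not tested, and in sorted bulk samples fewer cells of a type and less RNA per cell cannot be told apart.

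In oxidized cells Ldha was the most abundant member, at a mean of 1550 FPKM, followed by Aldoa at 1057 and Pkm at 1047 FPKM, and Eno1b stood at rank 11 of the 35 rows. In reduced cells Eno1b came first, at 1712 FPKM, followed by Ldha at 1393, Aldoa at 1092 and Pkm at 880 FPKM. The values of Aldoa and Pkm overlapped within each group, as did those of Eno1b and Ldha in reduced cells. At the other end stood Pfkfb4, Eno2 and Pfkfb3, at 1.06, 1.498 and 1.70 FPKM over all 6 libraries. The members together made up 2.52%, 2.58% and 1.90% of all FPKM in oxidized cells of A, B and C, against 2.97%, 2.52% and 2.26% in reduced cells of A, B and C. With the locus CT010467 left out of the total, the shares were 2.53%, 2.60% and 2.23% in oxidized cells and 3.37%, 2.86% and 2.58% in reduced cells, which turned the direction in population B. Of the member sums in reduced cells of A, B and C (10487, 8687 and 8369 FPKM), Eno1b alone held 2041, 1498 and 1596 FPKM. In oxidized cells of A, B and C it held 240, 242 and 265 of 8773, 8416 and 6808 FPKM. These shares therefore include the Eno1b difference and do not describe the other members alone.

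**Figure D1:**
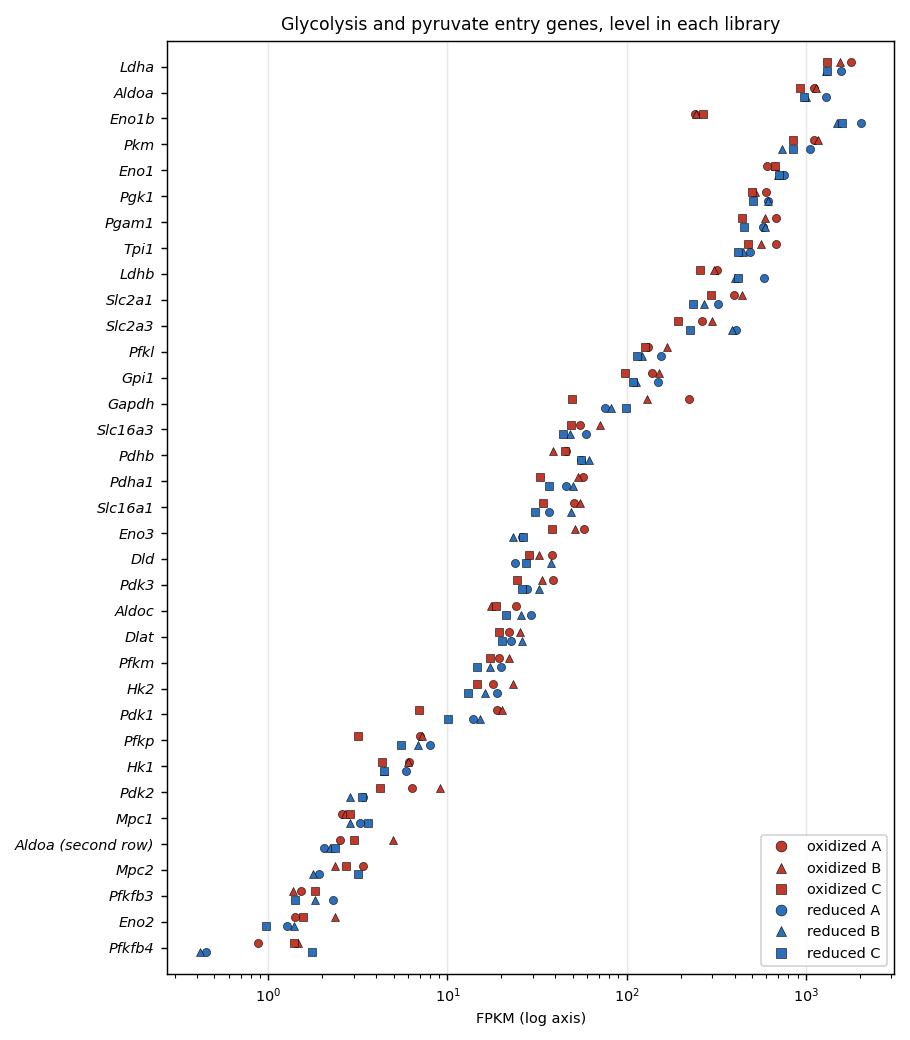
FPKM of each member row (log axis) in the 3 oxidized (red) and 3 reduced (blue) libraries, ordered by mean level, with a shape for each population. Eno1b is the row whose groups lie farthest apart, at 240 to 265 FPKM in oxidized and 1498 to 2041 FPKM in reduced cells.

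Across all genes tested with limma, 0.279% were called lower in oxidized cells and 0.517% higher (Benjamini-Hochberg adjusted p under 0.05). Of the member rows, 1 of 35 was called lower, Eno1b, and 0 were called higher. At an unadjusted p under 0.05, 5 of 35 rows (14.3%) passed, against 19.4% of all tested genes. All 3 oxidized libraries lay above all 3 reduced libraries in 4 rows (11.4%; 16.2% of all genes), namely Eno2, Eno3, Pdk2 and the low second row of Aldoa, and below them in 4 rows (11.4%; 8.81% of all genes), namely Eno1, Eno1b, Ldhb and Pdhb. The differences had a median of 0.13 on the log2 scale over the member rows, with 23 positive (65.7%) and 12 negative, against 0.08 over all tested genes, of which 59.3% were positive. Under median-ratio scaling these medians were 0.04 and -0.01, with 20 positive member rows. In 29 of 35 rows the 95% confidence interval lay within a log2 difference of 1 in either direction. These intervals are of log2(FPKM + 1) values and do not bound the fold of members near 1 FPKM, such as Pfkfb4.

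**Figure D2:**
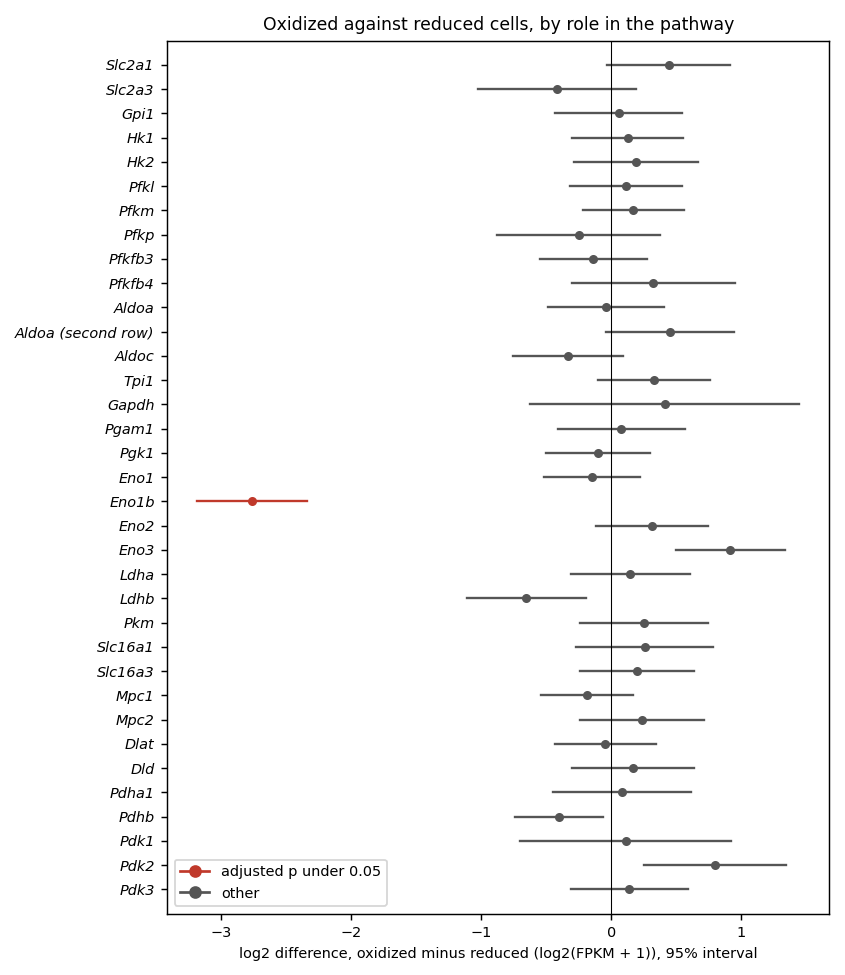
Log2 difference of each member row, oxidized minus reduced, of log2(FPKM + 1) values, with its 95% confidence interval from limma, in order along the pathway. Only Eno1b, at -2.76, has an adjusted p under 0.05, and the intervals of Eno3, Ldhb, Pdhb and Pdk2 also exclude 0.

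The glucose transporters had differences of opposite sign, and neither passed the threshold. Slc2a1, the broadly expressed transporter GLUT1, was at 396, 439 and 294 FPKM in oxidized cells of A, B and C, against 322, 269 and 235 FPKM in reduced cells of A, B and C (log2 difference 0.44, SE 0.21, adjusted p = 0.286). Slc2a3, the high-affinity transporter GLUT3, was at 262, 298 and 192 FPKM in oxidized cells of A, B and C, against 408, 386 and 227 FPKM in reduced cells of A, B and C (-0.42, SE 0.27, adjusted p = 0.416). The groups overlapped for each gene, with population C lowest in both groups, but not for the share that Slc2a3 held. Slc2a3 made up 39.8%, 40.4% and 39.5% of the pair in oxidized cells of A, B and C, against 55.9%, 58.9% and 49.1% in reduced cells of A, B and C. That share had an exact two-sided permutation p of 0.1 and an adjusted p of 0.267 over the 8 isozyme shares compared. The value 0.1 is the smallest that 3 against 3 libraries allow when their pairing by population is ignored, as it was here. The gene body of Slc2a3 overlaps Gm4482, a pseudogene at 3.21 FPKM on the same strand.

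Hexokinases, which phosphorylate glucose, overlapped between the groups. Hk2 was at 18.0, 23.2 and 14.5 FPKM in oxidized cells of A, B and C and 18.9, 16.2 and 13.0 FPKM in reduced cells of A, B and C (0.19, SE 0.21, adjusted p = 0.639). Hk1 had a lower level than Hk2, at 6.07, 6.05 and 4.30 FPKM in oxidized cells of A, B and C and 4.42 to 5.86 FPKM in reduced cells. Hk2 held 74.8% to 79.3% of the pair in oxidized and 74.6% to 78.6% in reduced cells. Glucose phosphate isomerase, Gpi1, was at 138, 152 and 98.0 FPKM in oxidized cells of A, B and C and 109 to 150 FPKM in reduced cells. Its difference (0.06, SE 0.22, 95% interval -0.43 to 0.55) turned sign under median-ratio scaling (-0.05).

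Of the phosphofructokinases, which commit sugar to glycolysis, the liver form Pfkl dominated in every library, with 83.2% to 86.1% of the 3 isozymes in oxidized and 83.5% to 85.1% in reduced cells. Pfkl itself was at 131, 168 and 127 FPKM in oxidized cells of A, B and C and 156, 122 and 115 FPKM in reduced cells of A, B and C (0.11, SE 0.19). The muscle form Pfkm was at 17.3 to 22.0 FPKM in oxidized and 14.7 to 19.9 FPKM in reduced cells (0.17, SE 0.17). The platelet form Pfkp was at 7.01 and 7.18 FPKM in A and B of the oxidized cells but 3.16 FPKM in C, against at least 5.49 FPKM in reduced cells. Its gene body overlaps Pitrm1 on the opposite strand, at 28.1 FPKM. Pfkfb3 and Pfkfb4, which set the level of the activator fructose 2,6-bisphosphate, were at 1.37 to 1.82 and 0.880 to 1.47 FPKM in oxidized cells and at 1.40 to 2.29 and 0.418 to 1.75 FPKM in reduced cells, and neither was called.

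The aldolases cleave fructose 1,6-bisphosphate. Aldoa was at 1112, 1134 and 926 FPKM in oxidized cells of A, B and C and 1289, 1005 and 981 FPKM in reduced cells of A, B and C (-0.04, SE 0.20, 95% interval -0.49 to 0.40). The second row of Aldoa, a neighbouring locus, was at 2.52 to 4.98 FPKM in oxidized and 2.04 to 2.37 FPKM in reduced cells, and Aldoc, the brain form, was at 17.4 to 24.0 FPKM in oxidized and 21.3 to 29.2 FPKM in reduced cells (-0.33, SE 0.19, adjusted p = 0.352). Triose phosphate isomerase, Tpi1, was at 678, 562 and 473 FPKM in oxidized cells of A, B and C and 485, 449 and 417 FPKM in reduced cells of A, B and C. Within each population Tpi1 was higher in oxidized cells, by 0.48, 0.32 and 0.18 on the log2 scale in A, B and C, but its groups overlapped (0.33, SE 0.19, adjusted p = 0.364).

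Gapdh, the enzyme that oxidizes glyceraldehyde 3-phosphate and often serves as a reference gene, had a row far below those of its neighbours in the pathway. Its own row was at 223, 130 and 49.5 FPKM in oxidized cells of A, B and C, against 75.2, 81.6 and 98.8 FPKM in reduced cells of A, B and C (0.41, SE 0.46, adjusted p = 0.642). Oxidized A and B lay above every reduced library and oxidized C below every one, so that the difference was 1.00 without oxidized C (adjusted p = 0.0346) and -0.76 without oxidized A and B. The row held 1.46% to 4.39% of the fragments per kilobase assigned to Gapdh and its copies, since the table has 44 other rows with a mean of at least 1 FPKM that share at least 20% of their 50-base stretches with Gapdh.

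Among those copies, the processed pseudogene Gm5559 alone was at 1328, 1509 and 1039 FPKM in oxidized cells of A, B and C and 692, 462 and 1160 FPKM in reduced cells of A, B and C. Gm12070 was at 879 to 1118 FPKM in oxidized cells and at 1220, 372 and 429 FPKM in reduced cells of A, B and C, and Gm7336 was at 370 to 816 FPKM in oxidized and 346 to 869 FPKM in reduced cells. Individual copies thus varied severalfold between libraries of 1 group. The sum over Gapdh and its 44 copies was steadier, at 5077, 4752 and 3392 FPKM in oxidized cells of A, B and C, against 3722, 3024 and 3309 FPKM in reduced cells of A, B and C (0.38, SE 0.23, adjusted p = 0.391). In that sum oxidized C lay within the reduced range, 0.04 above reduced C on the log2 scale. The difference of the sum was 0.56 without oxidized C (limma, adjusted p = 0.0828, not called) and 0.02 without oxidized A and B.

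The other enzymes between Gapdh and enolase were not called. Phosphoglycerate kinase, Pgk1, was at 596, 519 and 500 FPKM in oxidized cells of A, B and C and 618, 611 and 504 FPKM in reduced cells of A, B and C (-0.10, SE 0.18, 95% interval -0.50 to 0.30). Phosphoglycerate mutase, Pgam1, was at 679, 594 and 442 FPKM in oxidized cells of A, B and C and 573, 589 and 449 FPKM in reduced cells of A, B and C (0.08, SE 0.22). Summed with the identical copy Pgam1-ps2, Pgam1 differed by 0.12, and Pgk1 summed with its 2 copies by -0.08. The sign of the Pgam1 difference turned under median-ratio scaling (-0.03).

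Eno1b (chr18:48045335-48048412, GRCm38) was at 240, 242 and 265 FPKM in oxidized cells of A, B and C, against 2041, 1498 and 1596 FPKM in reduced cells of A, B and C. The 3 oxidized libraries were close together, oxidized C included, and far from every reduced library. Eno1b was 6.86-fold higher in reduced than in oxidized cells by the ratio of means, a log2 difference of -2.76 (SE 0.18, adjusted p = 0.00103). Within the populations the log2 differences were -3.08, -2.62 and -2.58 in A, B and C. The adjusted p was 0.0677 when no filter on low genes was applied, where 0 members passed.

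How fragments that match several genes were counted is unknown from the sources used here, and its part in the Eno1b value was not tested. Of the 50-base stretches of Eno1b, 91.6% occur in other genes, most of them in Eno1 and in the processed pseudogene Gm4735. Eno1 was at 609, 669 and 671 FPKM in oxidized cells of A, B and C, against 758, 700 and 704 FPKM in reduced cells of A, B and C (-0.15, SE 0.16, adjusted p = 0.635). Gm4735 was at 881, 907 and 914 FPKM in oxidized cells of A, B and C, against 1014, 994 and 986 FPKM in reduced cells of A, B and C (-0.15, SE 0.16, adjusted p = 0.642). Both were lower in oxidized cells in all 3 populations, with groups that did not overlap, and neither was called.

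Summed, the 3 rows came to 1731, 1819 and 1849 FPKM in oxidized cells of A, B and C, against 3813, 3191 and 3286 FPKM in reduced cells of A, B and C. That sum can still depend on how fragments were divided, since each FPKM is set against the transcript length of its own row. It differed by -0.93 (SE 0.19) with an adjusted p of 0.0679 from limma, and by -0.95 without oxidized C (adjusted p = 0.0120). It also passed in limma without the mean-variance trend (adjusted p = 0.0407). It did not pass with the population as a block (limma, adjusted p = 0.113). Among the limma fits that leave out 1 library, its adjusted p rose to 0.284. Eno1 and Eno1b alone summed to 850, 911 and 936 FPKM in oxidized cells of A, B and C, against 2799, 2197 and 2300 FPKM in reduced cells of A, B and C (-1.43, adjusted p = 0.0267). Eno1b made up 28.3%, 26.6% and 28.3% of that pair in oxidized cells of A, B and C, against 72.9%, 68.2% and 69.4% in reduced cells of A, B and C (exact permutation p = 0.1, adjusted p = 0.267 over the 8 shares).

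**Figure D3:**
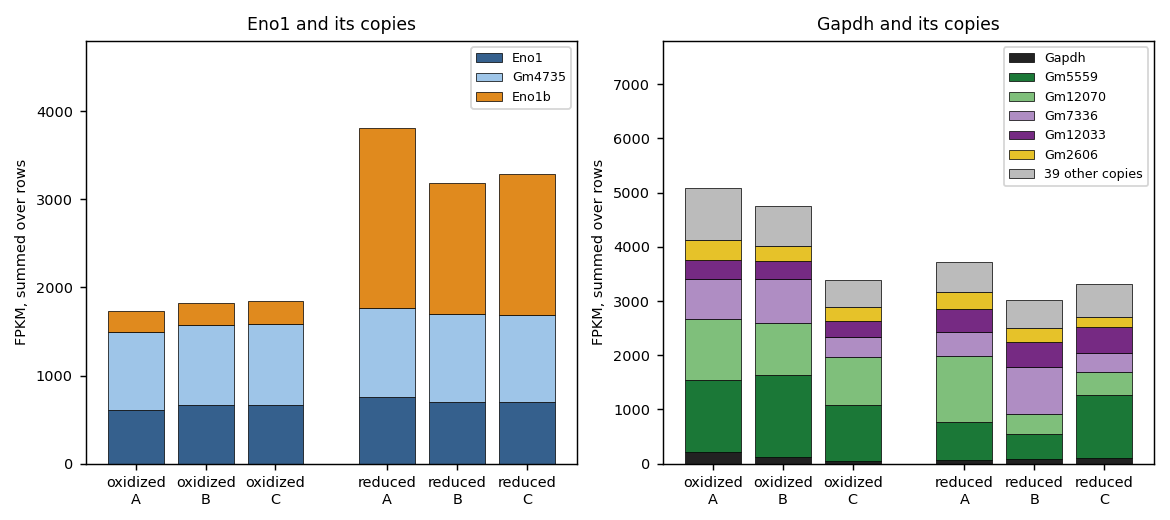
FPKM summed over Eno1, its pseudogene Gm4735 and Eno1b (left) and over Gapdh and its 44 copies (right), as stacked bars for each of the 6 libraries. The Eno1b layer accounts for 13.3% to 14.3% of the enolase bar in oxidized and 46.9% to 53.5% in reduced libraries, and the Gapdh layer is thin in all 6.

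Eno3 had a difference of the opposite sign. The muscle enolase was at 58.0, 51.4 and 38.3 FPKM in oxidized cells of A, B and C, against 26.1, 23.3 and 26.4 FPKM in reduced cells of A, B and C. Every oxidized library exceeded every reduced one, with oxidized C nearest to them, and the means were 49.2 ± 10.1 and 25.3 ± 1.73 FPKM (SD, n = 3 each). The log2 difference was 0.92 (SE 0.18), with an adjusted p of 0.0657, the smallest among members after Eno1b. Without oxidized C it was 1.08 (adjusted p = 0.00607), and within the populations it was 1.12, 1.11 and 0.52 in A, B and C. With the population as a block the adjusted p of Eno3 was 0.108 (limma). Among the limma fits that leave out 1 library it rose to 0.242. Cardiac markers (4 of 6 at a mean of 1 FPKM) summed to 15.6 to 19.5 FPKM in oxidized and 8.81 to 12.2 FPKM in reduced cells, with Tnnt2 and Myh6 near 0 in all libraries. Of that list, Tnni1 and Actc1 were at 6.19 to 9.11 and 3.91 to 6.38 FPKM in oxidized and 1.90 to 3.78 and 2.34 to 2.51 FPKM in reduced cells, whereas Myl7 was at 4.09, 1.10 and 2.71 FPKM in A, B and C of the oxidized cells and 3.599 to 4.21 FPKM in reduced cells. Eno2, the neuronal enolase, was low, at 1.41, 2.36 and 1.57 FPKM in oxidized cells of A, B and C, against 1.28, 1.39 and 0.975 FPKM in reduced cells of A, B and C (0.32, SE 0.19, adjusted p = 0.382).

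After enolase, pyruvate kinase makes pyruvate. Pkm was at 1114, 1176 and 850 FPKM in oxidized cells of A, B and C and 1057, 738 and 844 FPKM in reduced cells of A, B and C (0.25, SE 0.22, adjusted p = 0.541). A gene-level value does not tell its splice forms M1 and M2 apart.

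The lactate dehydrogenase subunits had differences of opposite sign, with neither called. Ldhb, the heart-type subunit, was at 321, 307 and 256 FPKM in oxidized cells of A, B and C, against 583, 402 and 419 FPKM in reduced cells of A, B and C. Its groups did not overlap, and the log2 difference was -0.65 (SE 0.20, adjusted p = 0.145). Ldha, the muscle-type subunit, was at 1795, 1545 and 1310 FPKM in oxidized cells of A, B and C, against 1564, 1297 and 1318 FPKM in reduced cells of A, B and C (0.15, SE 0.20, adjusted p = 0.711). Ldhb made up 15.2%, 16.6% and 16.3% of the pair in oxidized cells of A, B and C, against 27.2%, 23.7% and 24.1% in reduced cells of A, B and C (exact permutation p = 0.1, adjusted p = 0.267). As for the Slc2a3 share, the value in oxidized C was close to those in oxidized A and B although the levels of both genes were lower there.

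**Figure D4:**
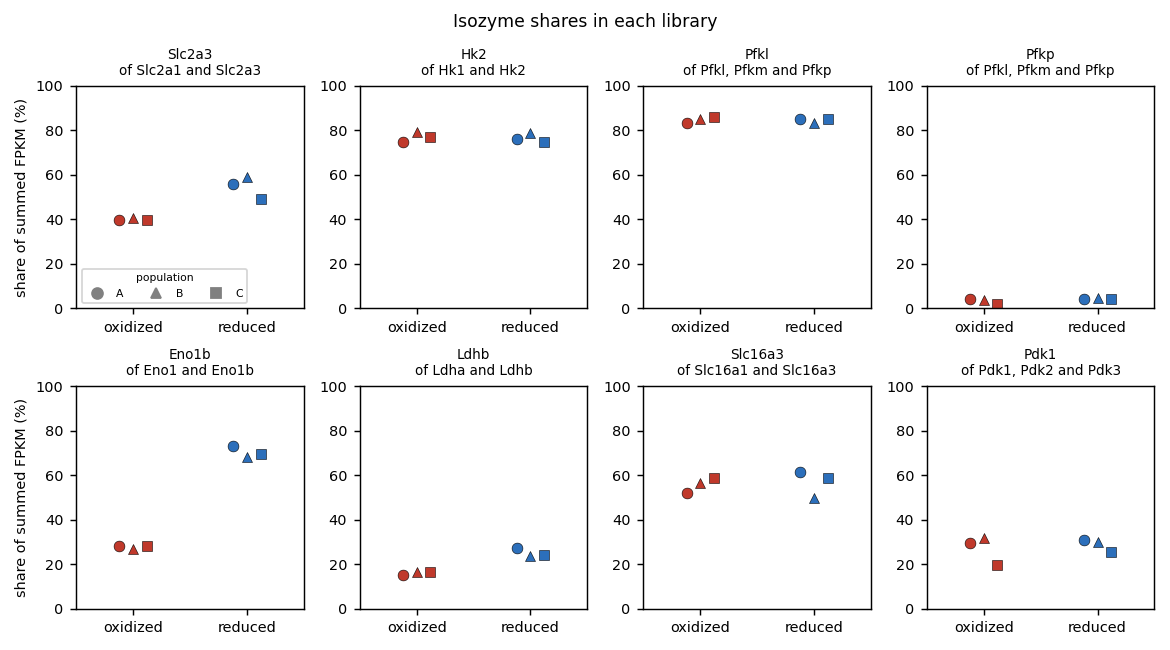
Share of the summed FPKM of an isozyme family held by 1 member, in percent, for 8 shares, in the 3 oxidized (red, left) and 3 reduced (blue, right) libraries. The groups are apart for Slc2a3, Eno1b and Ldhb and overlap for the other 5.

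Lactate and pyruvate cross the plasma membrane through Slc16a1 (MCT1) and Slc16a3 (MCT4). Slc16a1 was at 51.1, 54.8 and 34.3 FPKM in oxidized cells of A, B and C and 37.0, 48.9 and 30.8 FPKM in reduced cells of A, B and C (0.26, SE 0.23). Slc16a3 was at 54.8, 70.9 and 48.9 FPKM in oxidized cells of A, B and C and 59.1, 48.1 and 43.8 FPKM in reduced cells of A, B and C (0.20, SE 0.19). Their partner basigin, Bsg, was at 390 to 540 FPKM in oxidized and 405 to 646 FPKM in reduced cells (-0.07, SE 0.23). Embigin, Emb, was at 34.9, 38.5 and 19.4 FPKM in oxidized cells of A, B and C and 20.3 to 32.8 FPKM in reduced cells (0.22, SE 0.28). None of the 4 was called.

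Mitochondrial pyruvate entry needs both carrier subunits. Mpc1 was at 2.59 to 2.87 FPKM in oxidized and 2.86 to 3.58 FPKM in reduced cells (-0.18, SE 0.16), but its own row held only 9.99% to 14.0% of the sum with its pseudogene Mpc1-ps. The sum was 20.8, 19.2 and 24.4 FPKM in oxidized cells of A, B and C, against 32.7, 22.3 and 33.6 FPKM in reduced cells of A, B and C (-0.42, SE 0.20, adjusted p = 0.277). Mpc2 was at 3.39, 2.36 and 2.73 FPKM in oxidized cells of A, B and C and 1.91, 1.76 and 3.18 FPKM in reduced cells of A, B and C (0.24, SE 0.21, adjusted p = 0.555).

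Of the pyruvate dehydrogenase subunits, the E1 beta subunit Pdhb separated the groups without being called. Pdhb was at 46.0, 38.9 and 45.5 FPKM in oxidized cells of A, B and C, against 55.7, 61.6 and 55.5 FPKM in reduced cells of A, B and C (-0.40, SE 0.15, adjusted p = 0.198). Its E1 partner Pdha1 was at 56.9, 53.6 and 32.7 FPKM in oxidized cells of A, B and C and 45.9, 49.9 and 36.7 FPKM in reduced cells of A, B and C (0.08, SE 0.23), turning to -0.02 under median-ratio scaling. The E2 subunit Dlat was at 19.3 to 25.4 FPKM in oxidized and 20.2 to 26.2 FPKM in reduced cells (-0.04, 95% interval -0.43 to 0.34), and the E3 subunit Dld at 28.5 to 38.5 FPKM in oxidized and 23.8 to 37.9 FPKM in reduced cells (0.17, SE 0.21).

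Pyruvate dehydrogenase kinases inhibit that complex. Pdk2 was at 6.37, 9.06 and 4.18 FPKM in oxidized cells of A, B and C, against 3.40, 2.84 and 3.31 FPKM in reduced cells of A, B and C (0.80, SE 0.24, adjusted p = 0.141). Its groups did not overlap, with oxidized C closest to the reduced libraries, and without oxidized C the difference was 1.04 (adjusted p = 0.0128). With the population as a block the adjusted p of Pdk2 was 0.169 (limma). Among the limma fits that leave out 1 library it rose to 0.379. Pdk1, a target of hypoxia-inducible factor, was at 19.0 and 20.1 FPKM in A and B of the oxidized cells and 6.93 FPKM in C, against 13.8, 15.1 and 10.1 FPKM in reduced cells of A, B and C. Oxidized C held the lowest Pdk1 of all 6 libraries and oxidized A and B the highest (0.11, SE 0.36, adjusted p = 0.885). Pdk3 was at 38.7, 33.6 and 24.4 FPKM in oxidized cells of A, B and C and 27.7, 32.6 and 26.1 FPKM in reduced cells of A, B and C (0.14, SE 0.20).

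The position of oxidized C in the single Gapdh row and in Pdk1 recurred across the members. Oxidized A lay above the reduced range in 17 of 35 rows (48.6%; 40.2% of all tested genes) and below it in 5 (14.3%; 25.1%). Oxidized B lay above it in 19 (54.3%; 44.7%) and below it in 7 (20%; 23.4%). Oxidized C lay above it in 4 (11.4%; 32.3%) and below it in 17 (48.6%; 30.3%), and was the lowest of all 6 libraries in 13 rows (37.1%; 21.1%). In 6 rows (Hk1, Gapdh, Pgam1, Pdha1, Pdk1 and Pdk3) oxidized A and B were above and oxidized C below every reduced library (17.1%; 4.11%). Reduced C was low as well, the lowest of the reduced libraries in 21 of 35 rows (60%; 33.0% of all tested genes). The median difference of the member rows was 0.04 in A, 0.25 in B and -0.04 in C, against 0.09, 0.14 and 0.00 over all tested genes, and 18, 24 and 14 member rows (51.4%, 68.6% and 40%) were higher in oxidized cells, against 58.2%, 60.3% and 50.02% of all tested genes. Without oxidized C, 4 member rows were called: Eno1b lower, and Eno3, Pdk2 and the single Gapdh row higher. Gapdh summed with its copies was not called in that setting (limma, adjusted p = 0.0828). In the fit of single rows without oxidized C, 7.36% of all genes were called higher and 2.51% lower.

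**Figure D5:**
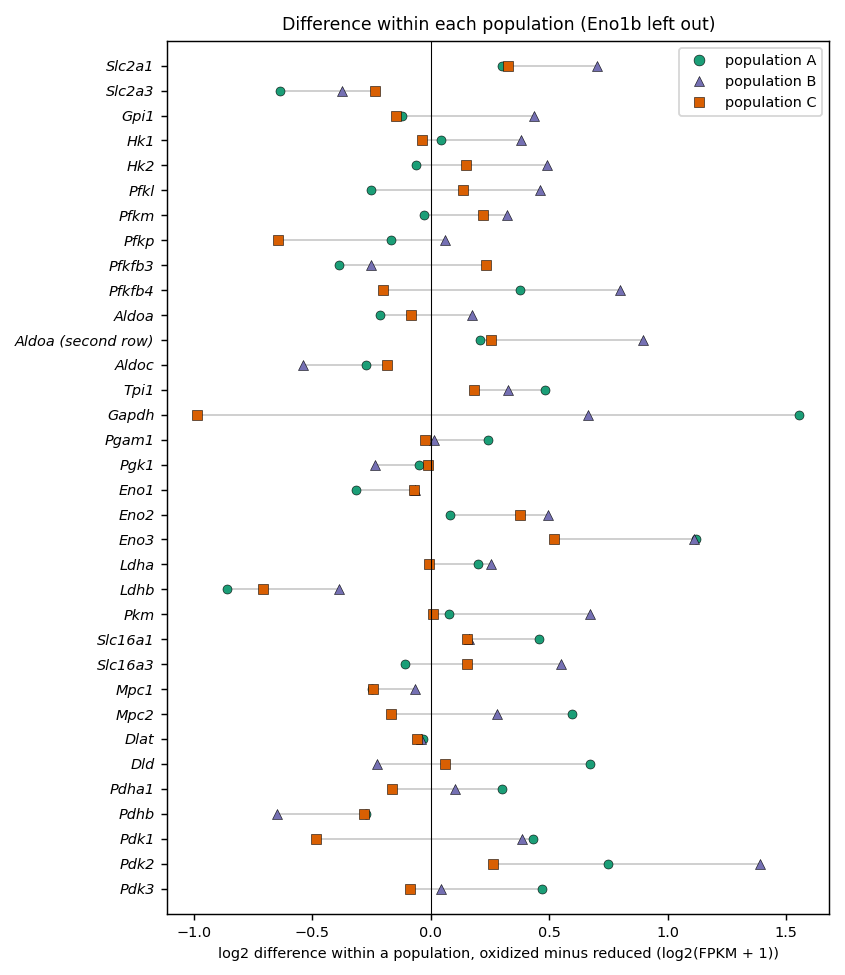
Log2 difference within each population, oxidized minus reduced, of log2(FPKM + 1) values, for every member row except Eno1b, whose values run from -3.08 to -2.58. Population C (squares) is the lowest of the 3 in 17 of the 35 member rows (48.6%; 41.7% of all tested genes), Gapdh among them, whose differences are 1.55, 0.66 and -0.98 in A, B and C.

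In the authors' deposited table, 4 member rows had a q-value under 0.05, Eno1b (q = 1.92e-42), Eno3 (0.00517), Ldhb (0.0153) and Pdk2 (0.0478), against 864 of 31265 rows (2.76%). The authors' deposited table marks 2 member rows as significant, Eno1b and Pdk2, and 605 of all rows (1.94%).

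Other genes of the pathway were read from 5 lists. Of the other glycolytic enzymes and regulators, 25 of 26 were in the table and 13 were tested, with 0 called higher and 1 lower. That gene was Tigar, a phosphatase that lowers fructose 2,6-bisphosphate and slows glycolysis. It was at 9.70, 9.57 and 8.11 FPKM in oxidized cells of A, B and C, against 16.6, 18.5 and 17.1 FPKM in reduced cells of A, B and C, with oxidized C like the others. Its log2 difference was -0.86 (SE 0.15, adjusted p = 0.0449), and with the population as a block the adjusted p was 0.0925. Without reduced A, the adjusted p of Tigar was 0.202, the highest of the fits that leave out 1 library, and without reduced B, oxidized B, oxidized A and reduced C it was 0.186, 0.144, 0.129 and 0.0877.

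No gene of the other lists passed. The gluconeogenic enzyme Fbp1, the only tested gene of its list, was at 0.770, 0.577 and 0.495 FPKM in oxidized cells of A, B and C, against 1.71, 1.26 and 2.01 FPKM in reduced cells of A, B and C (-0.72, SE 0.18, adjusted p = 0.107). It reached the filter mean of 1 FPKM only through the reduced libraries, where it was higher. Its difference therefore cannot be read apart from that filter. Among 12 other tested genes of pyruvate entry, the citrate carrier Slc25a1 was the most abundant, at 62.7 to 71.9 FPKM in oxidized and 56.4 to 77.4 FPKM in reduced cells, and Lipt2, which transfers the lipoyl precursor, had the smallest p, at 8.92 to 11.0 FPKM in oxidized and 7.12 to 8.32 FPKM in reduced cells (0.39, SE 0.16, adjusted p = 0.225). Of 9 tested transcription factors and regulators of glycolytic genes, the oxygen-sensing hydroxylase Egln1 was at 42.2 to 50.8 FPKM in oxidized and 36.2 to 42.8 FPKM in reduced cells (0.22, SE 0.16). Myc, which drives many glycolytic genes, was at 18.7, 15.7 and 7.59 FPKM in oxidized cells of A, B and C, against 4.44, 2.95 and 5.22 FPKM in reduced cells of A, B and C (1.47, SE 0.31, adjusted p = 0.0780), and passed without oxidized C (1.83, adjusted p = 0.00236). With the population as a block the adjusted p of Myc was 0.113 (limma). Among the limma fits that leave out 1 library it rose to 0.275. Mycn was more abundant and overlapped, at 43.3, 55.9 and 32.6 FPKM in oxidized and 38.8, 41.4 and 32.5 FPKM in reduced cells of A, B and C (0.19, SE 0.21, adjusted p = 0.638). From the glycolytic list, Pgam5 (1.19, adjusted p = 0.00369) and Adpgk (0.75, adjusted p = 0.0408) also passed only without oxidized C.

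Members were also compared by promoter sequence, since hypoxia-inducible factor and MYC bind short motifs at glycolytic genes (ACGTG or GCGTG for the factor, CACGTG for MYC). For 32 of the 34 genes, RefSeq gave the 250 bases before the first listed start (GRCm38.p6). ACGTG, on either strand, occurred in 12 of 32 (37.5%), against 16.6% of 27025 promoters of the same length, GCGTG in 17 (53.1%), against 28.2%, and CACGTG, which contains ACGTG, in 4 (12.5%), against 6.05%. The member promoters were also richer in G and C, with a median of 62% against 52%, so these shares are not at equal base composition. The promoters of Pdk2 and Ldhb are shown because these genes lay on opposite sides of the reduced range, and capitals mark the motif matches on either strand. They are chr11:95041372-95041621 and chr6:142507958-142508207, both minus strand.
Pdk2: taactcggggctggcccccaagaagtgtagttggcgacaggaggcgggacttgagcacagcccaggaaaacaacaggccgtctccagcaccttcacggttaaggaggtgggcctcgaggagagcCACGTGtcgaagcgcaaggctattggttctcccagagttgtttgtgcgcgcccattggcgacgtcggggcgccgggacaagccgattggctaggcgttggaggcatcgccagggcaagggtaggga
Ldhb: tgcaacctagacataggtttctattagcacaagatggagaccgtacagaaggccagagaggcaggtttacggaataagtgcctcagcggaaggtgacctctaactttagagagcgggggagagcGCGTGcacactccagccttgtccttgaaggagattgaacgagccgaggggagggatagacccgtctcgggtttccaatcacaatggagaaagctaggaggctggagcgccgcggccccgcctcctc
Pdk2 holds 1 CACGTG and Ldhb 1 GCGTG. A match describes these letters only and says nothing about whether a factor was bound.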

How the data were processed

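Poly(A) RNA was sequenced as stranded paired-end libraries, per the labels' protocols. The authors deposited 1 table with an FPKM value per gene and library, per the file headers, and beside them a fold (ratio of mean FPKM), its log2, a p-value and a q-value of the authors' own test. Per the submitters' processing notes the tools were cutadapt, FastQC, HISAT2, StringTie and edgeR, on mm10. The treatment of fragments with several matches, and of strand, was not given in the sources used here. FPKM values fell on whole-read steps for 36.6% to 41.0% of low values within 2%, so reads were not recovered.

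limma 3.58.1 in R 4.3.3 fitted group alone to log2(FPKM + 1) over the 12191 genes that averaged 1 FPKM or more (lmFit, eBayes with trend; two-sided, Benjamini-Hochberg over all genes; no minimum change). This scale understates the change of low genes. The test was checked on simulated data. Shares were compared by exact permutation of libraries between the groups, without keeping their pairing by population. Both groups were sorted from each population, per the design text, so letters pair libraries. Deviations within a letter correlated at -0.06 (A), 0.07 (B) and 0.20 (C). Between letters they ran from -0.17 (oxidized B with reduced C) to 0.13 (oxidized A with reduced B), so only C stood above that range. Copies are rows with a mean of at least 1 FPKM and at least 20% of their 50-base stretches in a member, from GENCODE vM21 transcripts, without overlapping genes. All members were named, and from each pathway list every called gene, or else the most abundant and that with the smallest p. Mycn, Pgam5 and Adpgk were named beside Myc. Of the copies, the most abundant were named. Members and lists were chosen with earlier results of these data known. Alternatives were the population block, median-ratio scaling, other filters, a pseudocount of 0.1, no trend, summed copies and left-out libraries.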

Additional observations from a re-analysis of the deposited data

How the results depend on the processing

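Eno1b kept its direction under every alternative run and passed in each except without a filter (adjusted p = 0.0677; 0 members, 0 lower, 1 higher and 0 list genes called, with 3327 genes at an unadjusted p under 0.05). With the population as a replicate block, 2 genes were called higher, 2 lower, 1 of them Eno1b, and 0 list genes; Tigar was then at 0.0925 (0.191 without a filter, 0.0505 without the trend, 0.129 without oxidized A and B), and no other call among the named genes changed. A mean of at least 5 FPKM gave 21 lower genes, and no trend gave 0 list genes. Leaving out 1 library gave 1 to 898 higher genes, 2 to 306 lower, 1 to 4 members and 0 to 4 list genes, the highest in each case without oxidized C. Without oxidized A and B, 6 genes were called higher, 5 lower and 0 of the lists. Summing copies was chosen after seeing the data.

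None of the differences that turned sign had passed in the main fit, and the cause was not tested. Of them, the single Gapdh row passed without oxidized C (limma, adjusted p = 0.0346). Median-ratio scaling gave -0.047 for Gpi1 (-0.044 with its copy), -0.027 for Pgam1 and -0.022 for Pdha1. Without oxidized A and B the difference was -0.76 for Gapdh, 0.0011 for Pfkfb3, -0.034 for Pkm (-0.031 with its copy), -0.15 for Slc16a1, -0.029 for Slc16a3, -0.12 for Hk2, -0.80 for Pdk1, -0.083 for Ldha, -0.22 for Pdk3, -0.030 for Dld, -0.32 for Gpi1 (-0.32 with its copy), -0.15 for Hk1, -0.27 for Pgam1 (-0.22 with its copy), -0.037 for Pfkl, -0.41 for Pdha1, -0.37 for Emb and -0.46 for Gm7336, and the Slc16a3 share differed by 2.15 percentage points. Leaving out 1 library gave -0.075 to 1.00 for Gapdh, -0.14 to 0.57 for Pdk1, -0.072 to 0.24 for Gpi1 (-0.067 to 0.25 with its copy), -0.057 to 0.25 for Pgam1, -0.063 to 0.33 for Pdha1, -0.014 to 0.25 for Pfkl, -0.42 to 0.070 for Pfkp, -0.11 to 0.084 for Aldoa, -0.14 to 0.050 for Dlat, -0.20 to 0.14 for Bsg, -0.15 to 0.074 for Slc25a1 and -0.027 to 0.64 for Gm7336. The shares ran from -4.50 to 1.46 points for Slc16a3, -0.49 to 1.74 for Hk2, -0.26 to 1.21 for Pfkl and -4.17 to 2.07 for Pdk1. Read numbers could not be recovered from FPKM, only the relative depth of the libraries, so no counting interval is given, and members near 1 FPKM carry the most counting error.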
